A study of Mus musculus with 12 samples.

Results

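The genes examined here form the interferon response of the mouse kidney together with the MHC class I presentation genes, 47 genes chosen by name from the study of which 45 had counts among the 13124 genes measured. Mx1 and Mx2 were not analysed here. The 45 comprise 4 interferon receptor chains, 4 sensors of foreign or misplaced nucleic acid, 8 transcription factors, 17 of 19 listed antiviral effectors, 6 regulators built on ubiquitin-like or ADP-ribose modification, and 6 MHC class I genes. Their levels were compared across the kidneys of 12 male C57BL/6 mice, 3 in each of 4 groups, taken 24 hours after surgery. In the anti-G-CSFR group (kidneys 7, 8 and 9) mice received VR81, a monoclonal antibody (mAb) against the receptor for granulocyte colony-stimulating factor, 24 hours before ischaemia-reperfusion injury (IRI). In the anti-C5 group (kidneys 10, 11 and 12) they received BB5.1, a mAb against complement component C5, at the same time before IRI. The isotype group (kidneys 4, 5 and 6) received a control mAb before IRI, and the sham group (kidneys 1, 2 and 3) had a sham operation and no antibody, so the comparison of isotype with sham kidneys joins the injury with the injection. The warm injury was made on one side only, and whether each kidney analysed was the operated one is not stated in the labels. RNA came from the whole perfused kidney with all its cells, so a change in a gene can come from fewer or more cells of a type or from less or more RNA per cell, and these cannot be told apart here.

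Interferons are secreted proteins that bind paired receptor chains on the cell surface, type I interferons the chains Ifnar1 and Ifnar2 and interferon gamma the chains Ifngr1 and Ifngr2. The receptors act through Janus kinases and STAT proteins. STAT complexes bind the interferon-stimulated response element (ISRE), with Irf9, or the gamma-activated site (GAS), in front of genes whose products degrade, trap or modify viral RNA and raise peptide presentation on MHC class I. In the injured kidney, nucleic acid released from dying tubule cells and mitochondria is known to reach the same sensors.

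The stretches before several of these genes are printed below to show the letters that the pathway's factors recognise, in genes that fell (Ifit3, Rsad2), in genes whose change was not called (Isg15, B2m) and in genes that rose (Isg20, Ifngr2). Each runs 5′ to 3′ on the gene's strand from 250 bases before to 50 bases after the RefSeq start in GRCm38.p6. Capitals mark matches on either strand to the ISRE core GAAANNGAAA in Ifit3, Rsad2, Isg15 and B2m, and to the GAS core TTCNNNGAA in Isg20. Ifngr2 held neither in this window. Isg20 has further RefSeq starts, not printed here, whose windows held neither core.
Ifit3, chr19:34583279-34583578, plus strand: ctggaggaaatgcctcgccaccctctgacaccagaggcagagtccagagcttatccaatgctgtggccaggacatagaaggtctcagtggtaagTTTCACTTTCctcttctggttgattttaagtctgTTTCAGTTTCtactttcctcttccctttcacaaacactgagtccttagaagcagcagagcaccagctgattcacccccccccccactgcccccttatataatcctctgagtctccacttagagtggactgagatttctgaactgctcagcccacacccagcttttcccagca
Rsad2, chr12:26456403-26456702, minus strand: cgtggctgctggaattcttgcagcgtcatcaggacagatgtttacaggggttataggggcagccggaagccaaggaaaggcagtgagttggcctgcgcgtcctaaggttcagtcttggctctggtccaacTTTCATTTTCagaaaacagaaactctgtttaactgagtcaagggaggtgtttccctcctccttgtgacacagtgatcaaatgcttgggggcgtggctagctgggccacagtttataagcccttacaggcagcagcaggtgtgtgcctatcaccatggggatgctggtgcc
Isg15, chr4:156200769-156201068, minus strand: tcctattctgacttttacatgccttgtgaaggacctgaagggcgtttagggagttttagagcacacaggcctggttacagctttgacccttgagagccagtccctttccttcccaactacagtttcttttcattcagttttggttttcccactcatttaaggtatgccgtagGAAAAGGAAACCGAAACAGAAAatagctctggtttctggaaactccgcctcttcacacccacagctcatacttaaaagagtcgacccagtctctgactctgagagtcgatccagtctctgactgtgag
B2m, chr2:122147437-122147736, plus strand: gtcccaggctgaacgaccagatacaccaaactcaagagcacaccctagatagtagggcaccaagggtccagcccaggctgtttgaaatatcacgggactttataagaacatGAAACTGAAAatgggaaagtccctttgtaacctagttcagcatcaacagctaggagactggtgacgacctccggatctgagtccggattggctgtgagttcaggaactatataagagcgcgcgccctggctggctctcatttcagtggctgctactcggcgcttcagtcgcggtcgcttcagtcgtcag
Isg20, chr7:78913174-78913473, plus strand: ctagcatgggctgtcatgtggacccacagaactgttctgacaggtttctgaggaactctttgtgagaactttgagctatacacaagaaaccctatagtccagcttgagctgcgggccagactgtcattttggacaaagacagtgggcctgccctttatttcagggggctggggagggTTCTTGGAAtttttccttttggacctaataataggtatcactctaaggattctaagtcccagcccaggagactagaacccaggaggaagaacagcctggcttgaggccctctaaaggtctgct
Ifngr2, chr16:91546809-91547108, plus strand: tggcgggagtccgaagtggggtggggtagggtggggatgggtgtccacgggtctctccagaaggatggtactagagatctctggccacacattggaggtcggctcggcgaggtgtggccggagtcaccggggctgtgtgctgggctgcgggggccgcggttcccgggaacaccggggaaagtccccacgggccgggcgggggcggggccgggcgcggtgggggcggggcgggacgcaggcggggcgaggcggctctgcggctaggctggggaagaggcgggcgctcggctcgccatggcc

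In Ifit3 the ISRE cores began 156 and 122 bases before the start, in Rsad2 120 bases, and in B2m 139 bases. Isg15 held 3 overlapping cores, beginning 78, 72 and 66 bases before its start. Of the 45 genes, 35 had a promoter in the RefSeq table, and the ISRE core stood in 14 of those 35 (40.0%), against 388 of 10428 genes of the whole table (3.72%). The GAS core stood in 11 of the 35 (31.4%), against 868 of 10428 (8.32%). By role, the ISRE core was found in 8 of 14 effectors, 2 of 2 sensors, 2 of 7 transcription factors, 1 of 3 regulators, 1 of 5 MHC class I genes and 0 of 4 receptor chains. Of the genes that rose in isotype over sham kidneys 0 of 6 held it, of those that fell 2 of 3, and of those not called 12 of 26. The GAS core was found in 6 of 14 effectors, 3 of 7 transcription factors, 2 of 4 receptor chains and in none of the sensors, regulators and MHC class I genes. It stood in 3 of 6 genes that rose, 0 of 3 that fell and 8 of 26 not called. Genes with several RefSeq starts counted once, and a match describes letters, not a bound site. The only overlap of an ISRE core with a GAS core among these promoters was in Bst2.

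Library totals ran from 13200930 to 16324215 counts, and levels are given as CPM, read counts divided by the TMM-scaled library size. Raw counts of the 45 genes ran from 10 to 4438 per kidney, and 10 genes had fewer than 50 in at least 1 kidney. The 15 tubule injury markers, which include Havcr1 and Lcn2, summed to 34940 to 39990 CPM in isotype kidneys and 1647 to 2625 CPM in sham kidneys. Kidney 9 (12360 CPM) and kidney 11 (14960 CPM) stood apart from the other antibody-treated kidneys, which lay between 1882 and 2272 CPM, and counts of genes are therefore also given without this pair. The kidney identity of the tissue was plain from 12 of 12 proximal tubule markers, which summed to 10870 to 17390 CPM in isotype kidneys and 35600 to 40260 CPM in sham kidneys.

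Most of the interferon and MHC class I genes were not called in injured isotype kidneys. Interferon receptor chains and the exonuclease gene Isg20 were higher than in sham kidneys, and the effector genes Ifit3, Ifi44 and Rsad2 were lower. The transcription factors and sensors had no called member in the TMM-scaled edgeR fit of all 12 libraries. Among the alternatives, a fit of only the 6 libraries compared called Irf1 and Ddx58, and library totals called Irf1 and Irf3. In isotype against sham kidneys 10 of 45 genes were called, 6 higher (Ifngr2, Ifngr1, Ifnar1, Isg20, Ifi35 and H2-D1) and 4 lower (Rsad2, Ifit3, Ifi44 and Usp18), by edgeR's quasi-likelihood test with Benjamini-Hochberg (BH) adjustment over all genes and a threshold of 0.05. That is 22.2% of the genes, while 62.8% of all genes tested were called in this comparison, 32.1% higher and 30.7% lower. The median log2 change of the 45 genes was 0.07, beside 0.03 over all genes.

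In anti-G-CSFR against isotype kidneys 10 of the 45 were called, 4 higher and 6 lower, against 63.5% of all genes (31.5% higher and 32% lower). In anti-C5 against isotype kidneys 9 were called, 4 higher and 5 lower, against 60.3% of all genes (30.5% higher and 29.8% lower). The median log2 changes of the 45 genes were 0.05 in each, beside -0.02 and -0.01 over all genes. The 3 comparisons share the isotype kidneys and are not independent of each other. Isotype and sham kidneys did not overlap for 11 genes that were higher and 5 that were lower in isotype kidneys, while they did not overlap for 69.2% of all genes (35.5% higher and 33.7% lower). Anti-G-CSFR and isotype kidneys did not overlap for 4 genes higher and 8 lower, against 67.2% of all genes (33% and 34.1%). Anti-C5 and isotype kidneys did not overlap for 9 genes higher and 7 lower, against 62.7% of all genes (31.7% and 31%). Without kidneys 9 and 11, an alternative chosen after the data were seen, the counts were 3 higher and 11 lower in anti-G-CSFR against isotype kidneys, and 4 higher and 8 lower in anti-C5 against isotype kidneys. Without scaling factors, on library totals alone, the split in isotype against sham kidneys was 12 higher and 3 lower instead of 6 and 4, and the median change of all genes moved to 0.23.

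**Figure D1:**
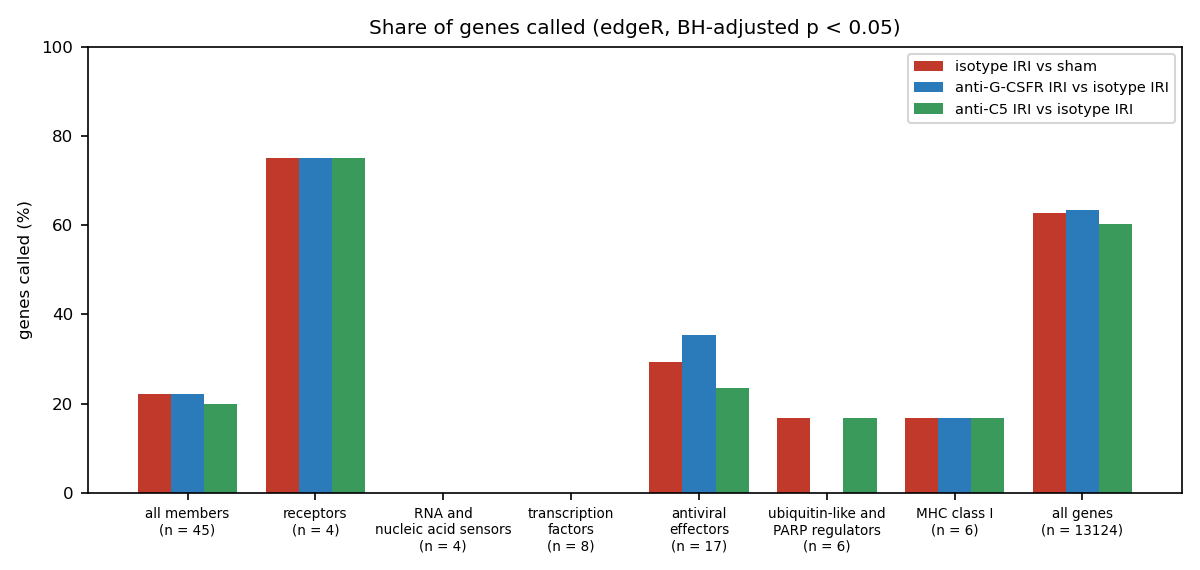
Percent of genes called in either direction (vertical axis, edgeR, BH-adjusted p under 0.05) in the 3 comparisons with the isotype group, for the 45 genes, for each role and for all genes measured. In isotype against sham kidneys 22.2% of the 45 genes were called, beside 62.8% of all genes, and 75% of the receptor chains beside 0% of the sensors.

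The changes were also small. The median size of the log2 change in isotype against sham kidneys was 0.20 for the 45 genes and 0.51 for all genes. Their errors were larger too, with a median SE of 0.23 beside 0.16. Of the 35 genes not called, 29 had a 95% interval of the log2 change inside a 2-fold change in either direction. The widest bounds among the others were -1.34 for Ifit1 and 1.19 for Dhx58, so for these genes a change beyond 2-fold lay within the interval.

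Of the 4 receptor chains 3 were called in isotype against sham kidneys, all of them higher, where 62.8% of all genes were called in either direction and 32.1% higher. Ifngr2, a chain of the interferon gamma receptor, had 24.3, 24.8 and 31.0 CPM in anti-G-CSFR kidneys, 23.8, 47.9 and 25.7 CPM in anti-C5 kidneys, 79.7, 83.5 and 74.8 CPM in isotype kidneys, and 25.0, 23.2 and 24.6 CPM in sham kidneys. Every isotype kidney lay above every other kidney, and within the anti-C5 group kidney 11 was the high one. The log2 change was 1.71 ± 0.22 (SE) in isotype against sham kidneys (edgeR, BH-adjusted p = 5.08e-05), -1.57 ± 0.22 in anti-G-CSFR against isotype kidneys (adjusted p = 9.54e-05) and -1.29 ± 0.22 in anti-C5 against isotype kidneys (adjusted p = 0.000392).

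Ifngr1, which binds interferon gamma, had 40.8, 39.3 and 46.8 CPM in anti-G-CSFR kidneys, 38.9, 47.2 and 35.7 CPM in anti-C5 kidneys, 71.5, 84.4 and 79.5 CPM in isotype kidneys, and 42.6, 45.4 and 39.2 CPM in sham kidneys. The isotype kidneys were again clear of all the others. The log2 changes were 0.89 ± 0.12 in isotype against sham kidneys, -0.89 ± 0.12 in anti-G-CSFR against isotype kidneys and -0.95 ± 0.12 in anti-C5 against isotype kidneys (edgeR, BH-adjusted p = 7.33e-05, 7.74e-05 and 6.9e-05).

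Ifnar1, a receptor chain for type I interferons, had 51.9, 52.1 and 62.5 CPM in anti-G-CSFR kidneys, 55.9, 65.2 and 55.0 CPM in anti-C5 kidneys, 86.9, 86.9 and 91.0 CPM in isotype kidneys, and 55.5, 57.5 and 54.7 CPM in sham kidneys. No kidney of another group reached the isotype range. The fitted log2 changes came to 0.66 ± 0.10 in isotype against sham kidneys, -0.67 ± 0.10 in anti-G-CSFR against isotype kidneys and -0.59 ± 0.10 in anti-C5 against isotype kidneys (edgeR, BH-adjusted p = 0.000128, 0.000128 and 0.000349). Its partner Ifnar2, the chain that binds type I interferon most tightly, had 24.8, 27.6 and 29.6 CPM in anti-G-CSFR kidneys, 27.3, 30.2 and 25.0 CPM in anti-C5 kidneys, 34.2, 29.7 and 30.8 CPM in isotype kidneys, and 25.9, 30.9 and 24.2 CPM in sham kidneys. Isotype and sham kidneys overlapped for Ifnar2, and its log2 change of 0.23 (95% interval -0.03 to 0.48) was not called (edgeR, BH-adjusted p = 0.109). The changes against isotype kidneys were -0.21 for anti-G-CSFR and -0.20 for anti-C5, neither of them called (edgeR, BH-adjusted p = 0.136 and 0.159).

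Ifnar2, Ifnar1 and Ifngr2 lie within 193 kb of each other on chromosome 16, from 91372783 to 91565623 in GRCm38 (GENCODE vM21), while Ifngr1 lies on chromosome 10, from 19591949 to 19610229. Of this cluster Ifnar1 and Ifngr2 changed, and Ifnar2 was not called. Summed over the 4 chains, levels were 141.8 to 169.9 CPM in anti-G-CSFR kidneys, 141.3 to 190.5 CPM in anti-C5 kidneys, 272.3 to 284.5 CPM in isotype kidneys, and 142.7 to 156.9 CPM in sham kidneys. Kidneys 9 and 11 were the highest of their groups. Neutrophil markers, 8 of 15 of them measured and S100a8 among them, summed to 2.16 to 2.91 CPM in anti-G-CSFR kidneys, 8.25 to 122.5 CPM in anti-C5 kidneys, 42.9 to 117.2 CPM in isotype kidneys and 8.01 to 10.6 CPM in sham kidneys. Monocyte and macrophage markers (15 of 16 measured) summed to 164.4 to 196.6 CPM in anti-G-CSFR kidneys, 206.3 to 286.5 CPM in anti-C5 kidneys, 263.6 to 315.8 CPM in isotype kidneys and 150.1 to 206.1 CPM in sham kidneys. Of these 15, 3 were called higher (Cd68, Cd14 and Itgam) and 1 lower (Csf1r) in isotype against sham kidneys, and 11 were not called. Endothelial markers (12 of 12) summed to 565.2 to 678.5 CPM in anti-G-CSFR kidneys, 627.7 to 637.6 CPM in anti-C5 kidneys, 735.8 to 960.4 CPM in isotype kidneys and 617.2 to 709.3 CPM in sham kidneys, with 5 called higher and 1 lower in isotype against sham kidneys. The part of these cells in the receptor changes was not tested.

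**Figure D2:**
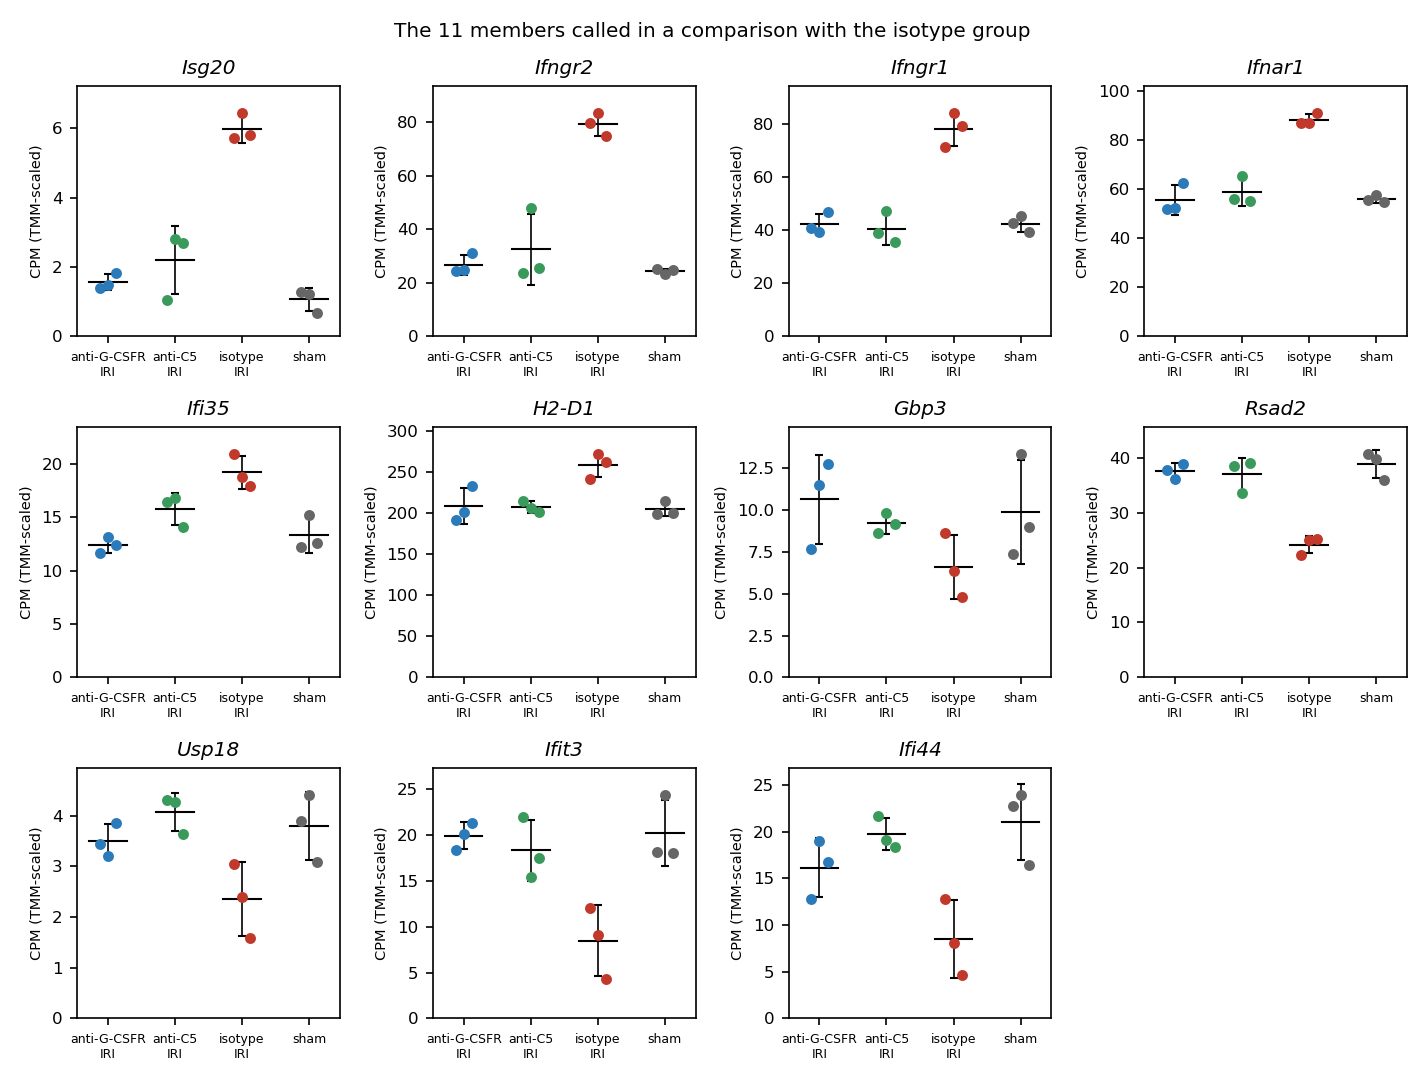
CPM (vertical axis, from 0) of the 11 genes called in at least 1 comparison with the isotype group, by group; points are single kidneys and bars the mean with SD of 3 kidneys. Ifngr2, Ifngr1, Ifnar1 and Isg20 are high in all 3 isotype kidneys, and Ifit3 and Rsad2 are low in them.

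Among the effectors 2 genes rose in isotype kidneys. Isg20, an exonuclease that degrades single-stranded RNA, had 1.39, 1.49 and 1.81 CPM in anti-G-CSFR kidneys, 1.06, 2.82 and 2.71 CPM in anti-C5 kidneys, 5.72, 6.45 and 5.80 CPM in isotype kidneys, and 1.27, 1.23 and 0.685 CPM in sham kidneys. The isotype kidneys stood above all others, at raw counts of 10 to 105 over the 12 kidneys. The log2 change was 2.48 ± 0.34 in isotype against sham kidneys, the largest of the 45 genes, -1.93 ± 0.33 in anti-G-CSFR against isotype kidneys and -1.45 ± 0.32 in anti-C5 against isotype kidneys (edgeR, BH-adjusted p = 8.17e-05, 0.000359 and 0.00211).

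Ifi35, an interferon-induced leucine zipper protein, had 11.7, 13.1 and 12.4 CPM in anti-G-CSFR kidneys, 16.4, 16.8 and 14.1 CPM in anti-C5 kidneys, 20.9, 18.8 and 17.9 CPM in isotype kidneys, and 12.2, 15.2 and 12.5 CPM in sham kidneys. Isotype kidneys lay above the kidneys of the other groups, and anti-C5 kidneys lay above anti-G-CSFR kidneys. The log2 change was 0.53 ± 0.12 in isotype against sham kidneys and -0.63 ± 0.12 in anti-G-CSFR against isotype kidneys (edgeR, BH-adjusted p = 0.00235 and 0.000814). In anti-C5 against isotype kidneys it was -0.29, which was not called (edgeR, BH-adjusted p = 0.0562).

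The effectors that fell include well-known products of type I interferon signalling. Rsad2 encodes viperin, an enzyme that makes a chain-terminating nucleotide. It had 37.8, 36.2 and 39.0 CPM in anti-G-CSFR kidneys, 38.4, 33.6 and 39.0 CPM in anti-C5 kidneys, 22.3, 25.1 and 25.2 CPM in isotype kidneys, and 40.8, 39.8 and 36.0 CPM in sham kidneys. All isotype kidneys were below all the others. On the log2 scale the changes were -0.68 ± 0.09 in isotype against sham kidneys, 0.64 ± 0.09 in anti-G-CSFR against isotype kidneys and 0.61 ± 0.09 in anti-C5 against isotype kidneys (edgeR, BH-adjusted p = 8.17e-05, 0.000143 and 0.000227).

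Ifit3, of a family of proteins that bind viral RNA, had 18.4, 20.1 and 21.3 CPM in anti-G-CSFR kidneys, 22, 15.4 and 17.6 CPM in anti-C5 kidneys, 12.1, 9.09 and 4.33 CPM in isotype kidneys, and 18.2, 24.4 and 18.1 CPM in sham kidneys. Isotype kidneys were below all the others and were spread over a wide range, with kidney 6 the lowest. In log2 units the changes were -1.24 ± 0.28 in isotype against sham kidneys, 1.22 ± 0.28 in anti-G-CSFR against isotype kidneys and 1.10 ± 0.28 in anti-C5 against isotype kidneys (edgeR, BH-adjusted p = 0.00223, 0.00256 and 0.00529). Ifit3 was named after its values were seen. Its counts are uncertain, since 31.7% of its windows of 100 bases, the read length, occur in another gene, chiefly its near copy Ifit3b.

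Ifi44, an interferon-induced antiviral gene, had 12.8, 18.9 and 16.7 CPM in anti-G-CSFR kidneys, 21.6, 19.1 and 18.4 CPM in anti-C5 kidneys, 12.8, 8.05 and 4.59 CPM in isotype kidneys, and 22.7, 23.9 and 16.4 CPM in sham kidneys. Isotype kidneys were below all anti-C5 and sham kidneys, and kidney 4 overlapped the anti-G-CSFR group at its low end. The log2 changes were -1.30 ± 0.29 in isotype against sham kidneys, 0.92 ± 0.29 in anti-G-CSFR against isotype kidneys and 1.21 ± 0.29 in anti-C5 against isotype kidneys (edgeR, BH-adjusted p = 0.00212, 0.0161 and 0.0038). The call in anti-G-CSFR against isotype kidneys was lost without kidney 8 and on library totals (edgeR, BH-adjusted p = 0.0622 and 0.0511).

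The remaining called effector was Gbp3, a guanylate-binding protein, which was named after its values were seen. It had 7.66, 11.5 and 12.8 CPM in anti-G-CSFR kidneys, 8.61, 9.84 and 9.20 CPM in anti-C5 kidneys, 8.61, 6.39 and 4.78 CPM in isotype kidneys, and 7.37, 13.4 and 8.97 CPM in sham kidneys. The isotype group overlapped the anti-G-CSFR group. Its log2 change of 0.68 ± 0.27 in anti-G-CSFR against isotype kidneys (edgeR, BH-adjusted p = 0.0398) was no longer called in 9 of 22 alternatives, with adjusted p up to 0.144, among them leaving out kidney 3, 5, 6, 8, 9 or 10.

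Ifit1, which binds viral RNA that lacks a host cap, was not called in the TMM-scaled edgeR fit of all 12 libraries. It was named after its values were seen and had 5.62, 6.86 and 8.47 CPM in anti-G-CSFR kidneys, 7.26, 8.82 and 6.11 CPM in anti-C5 kidneys, 6.39, 3.44 and 2.04 CPM in isotype kidneys, and 4.76, 8.24 and 4.32 CPM in sham kidneys. The groups overlapped in the comparison of isotype with sham kidneys, where the log2 change was -0.54 (edgeR, BH-adjusted p = 0.222). Against isotype kidneys it was 0.81 for anti-G-CSFR and 0.89 for anti-C5 (edgeR, BH-adjusted p = 0.0727 and 0.0521). The antibody changes were called in 3 and 4 of 22 alternatives. DESeq2 (BH-adjusted p = 0.049 and 0.0312) and limma-voom (0.0452 and 0.0294) called each of them. So did edgeR with kidney 4 left out (0.00471 and 0.00353), where the fall in isotype against sham kidneys was called too (-1.07, adjusted p = 0.0158). The change for anti-C5 was further called with kidney 2 left out (edgeR, BH-adjusted p = 0.043). Ifit2, Ifit3 and Ifit1 lie within 99 kb on chromosome 19, from 34550694 to 34650009.

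Over the 17 effectors, isotype against sham kidneys gave 2 higher, 3 lower and 12 not called, with a median log2 change of -0.08. Anti-G-CSFR against isotype kidneys gave 4 higher, 2 lower and 11 not called, with a median of 0.45. Anti-C5 against isotype kidneys gave 3 higher, 1 lower and 13 not called, with a median of 0.34. Of all genes, 32.1% were called higher and 30.7% lower in isotype against sham kidneys. In anti-G-CSFR against isotype kidneys the shares of all genes were 31.5% and 32%, and in anti-C5 against isotype kidneys 30.5% and 29.8%. The effectors not yet named had levels of 0.828 to 38.5 CPM over the 12 kidneys, the lowest in Oas1a, which makes the second messenger of RNase L, and the highest in Ifi27. The counts of Oas1a are uncertain, since 40.9% of its windows of 100 bases occur in another gene. Dendritic cell markers (6 of 13 measured) were 4 lower and 1 higher in isotype against sham kidneys. The 4 lower ones were the MHC class II genes H2-Aa, H2-Ab1, H2-Eb1 and Cd74, the listed marker Zbtb46 rose by 0.47 ± 0.11 in log2 units (edgeR, BH-adjusted p = 0.00337), and Itgax was not called. Their sum, carried by the class II genes, was 281.2 to 444.2 CPM in anti-G-CSFR kidneys, 273.1 to 426 CPM in anti-C5 kidneys, 126 to 224.8 CPM in isotype kidneys, and 294.4 to 444.2 CPM in sham kidneys. B cell markers (2 of 7 measured) summed to 1.59 to 3.07 CPM in isotype kidneys and 5.23 to 11.0 CPM in sham kidneys, and 0 of 18 T and NK cell markers were measured here. The part of these cells in the effector changes was not tested.

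**Figure D3:**
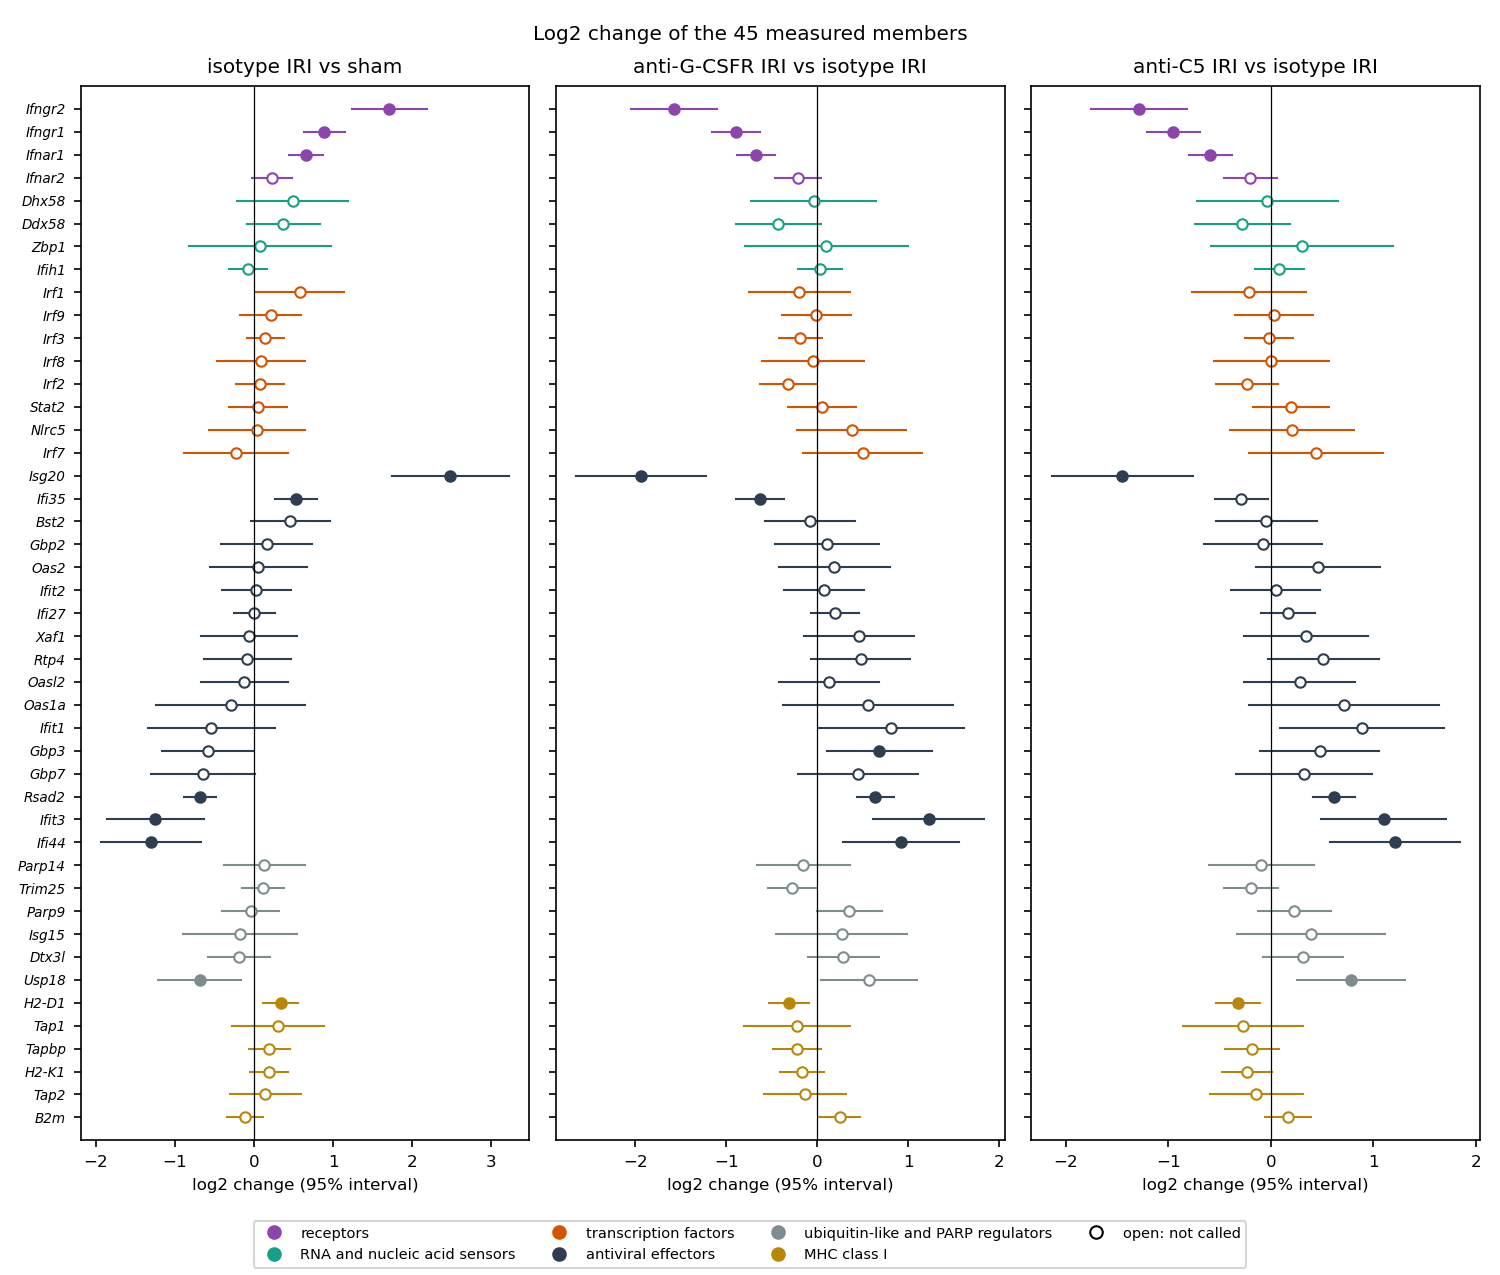
Log2 changes with 95% intervals (horizontal axis) of the 45 genes, grouped by role, in the 3 comparisons with the isotype group; filled points are called. The intervals of Ifngr2, Ifngr1, Ifnar1 and Isg20 lie to one side of 0 in isotype against sham kidneys and to the other in the antibody comparisons, while most intervals of the sensors and transcription factors span 0.

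Of the 6 regulators, 1 fell in isotype kidneys. Usp18, which strips the ubiquitin-like protein Isg15 from its targets and dampens type I interferon signalling, had 3.44, 3.21 and 3.86 CPM in anti-G-CSFR kidneys, 4.30, 4.27 and 3.63 CPM in anti-C5 kidneys, 3.06, 2.40 and 1.59 CPM in isotype kidneys, and 3.89, 4.41 and 3.08 CPM in sham kidneys. The isotype kidneys were below the others by a narrow margin. The log2 change was -0.69 ± 0.24 in isotype against sham kidneys and 0.79 ± 0.24 in anti-C5 against isotype kidneys (edgeR, BH-adjusted p = 0.0261 and 0.0144), and 0.57 in anti-G-CSFR against isotype kidneys, which was not called (adjusted p = 0.0582). The fall was not called without kidney 1, 2, 5 or 6 (edgeR, BH-adjusted p = 0.0621, 0.0994, 0.058 and 0.1), and the call in anti-C5 against isotype kidneys was lost without kidney 6 (adjusted p = 0.0568). Both were also lost on library totals (edgeR, BH-adjusted p = 0.107 and 0.0519) and in a fit of only the 6 libraries compared (0.0603 and 0.0533).

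The other regulators were not called in any of these comparisons in the TMM-scaled edgeR fit of all 12 libraries. Isg15, the ubiquitin-like modifier itself, named after its values were seen, had 3.17, 4.70 and 5.07 CPM in anti-G-CSFR kidneys, 4.58, 5.93 and 3.56 CPM in anti-C5 kidneys, 5.05, 3.26 and 2.36 CPM in isotype kidneys, and 2.81, 5.51 and 3.77 CPM in sham kidneys. All groups overlapped, and the 95% interval of its log2 change in isotype against sham kidneys ran from -0.90 to 0.54. Trim25, a ubiquitin ligase that acts on RIG-I, had 85.8, 92.4 and 99.5 CPM in anti-G-CSFR kidneys, 112, 94.3 and 87.2 CPM in anti-C5 kidneys, 95.2, 121 and 119.6 CPM in isotype kidneys, and 106, 108 and 96.0 CPM in sham kidneys. Its interval in isotype against sham kidneys was -0.14 to 0.38. In anti-G-CSFR against isotype kidneys the log2 change of Trim25 was -0.28 (95% interval -0.54 to -0.01). Trim25 was called there on library totals and without kidney 4 or 10. In anti-C5 against isotype kidneys it was called on library totals and without kidney 4.

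Parp9 and Dtx3l encode an ADP-ribosyltransferase family protein and a ubiquitin ligase that work as a complex, and they lie with Parp14 within 140 kb on chromosome 16. Parp9 had 22.1, 25.5 and 35.1 CPM in anti-G-CSFR kidneys, 25.4, 27.4 and 23 CPM in anti-C5 kidneys, 20.9, 22.6 and 21.1 CPM in isotype kidneys, and 18.6, 25.6 and 22.4 CPM in sham kidneys. Dtx3l had 16, 15.5 and 22.7 CPM in anti-G-CSFR kidneys, 20.0, 20.5 and 14.8 CPM in anti-C5 kidneys, 16.6, 15.4 and 12.4 CPM in isotype kidneys, and 16.2, 18.8 and 15.6 CPM in sham kidneys. For both genes isotype and sham kidneys overlapped, and kidney 9 was the high one of the anti-G-CSFR group. Their intervals in isotype against sham kidneys were -0.40 to 0.32 for Parp9 and -0.58 to 0.20 for Dtx3l.

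In the TMM-scaled edgeR fit of all 12 libraries no sensor was called in isotype against sham kidneys or in either antibody against isotype kidneys. Ddx58, which encodes the RNA sensor RIG-I, had 24.6, 23.6 and 39.3 CPM in anti-G-CSFR kidneys, 27.2, 43.3 and 26.8 CPM in anti-C5 kidneys, 41.3, 39.0 and 37.5 CPM in isotype kidneys, and 30.3, 33.9 and 26.9 CPM in sham kidneys. The isotype kidneys were above the sham kidneys, and kidneys 9 and 11 lay at or above the isotype level while the other antibody-treated kidneys lay within or below the sham range. The log2 change of 0.37 in isotype against sham kidneys (95% interval -0.09 to 0.84) was not called (edgeR, BH-adjusted p = 0.147). It passed at nearly the same size without kidneys 9 and 11 (0.36, adjusted p = 0.00778) and in a fit of only the 6 libraries compared (0.36, adjusted p = 0.0198). Kidneys 9 and 11 are in neither group and enter this comparison only through the shared fit and its estimate of the spread. Against isotype kidneys the log2 change of Ddx58 was -0.43 for anti-G-CSFR and -0.28 for anti-C5, neither called. The change for anti-G-CSFR was called on library totals and without kidney 9, kidney 11 or both. That for anti-C5 was called without kidney 11 and without kidneys 9 and 11.

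Dhx58, the related sensor LGP2, had 1.19, 2.91 and 2.35 CPM in anti-G-CSFR kidneys, 2.75, 1.88 and 1.78 CPM in anti-C5 kidneys, 1.89, 2.21 and 2.48 CPM in isotype kidneys, and 1.34, 1.75 and 1.57 CPM in sham kidneys. All isotype kidneys were above all sham kidneys for Dhx58, and the anti-C5 kidneys were also above the sham kidneys, by a narrow margin. The anti-G-CSFR kidneys overlapped both isotype and sham kidneys. Ifih1, which encodes MDA5, a sensor of long double-stranded RNA, had 19.1, 16 and 19.4 CPM in anti-G-CSFR kidneys, 18.7, 20.0 and 17.8 CPM in anti-C5 kidneys, 17.1, 19.3 and 16.9 CPM in isotype kidneys, and 17.2, 20.1 and 18.6 CPM in sham kidneys. Ifih1 varied little in any group, and its log2 change in isotype against sham kidneys had a 95% interval of -0.31 to 0.17. Zbp1, a sensor of Z-form nucleic acid that can start necroptosis, had 1.65, 1.79 and 2.12 CPM in anti-G-CSFR kidneys, 2.82, 2.02 and 1.55 CPM in anti-C5 kidneys, 2.94, 1.29 and 0.892 CPM in isotype kidneys, and 1.74, 2.01 and 1.16 CPM in sham kidneys. The isotype kidneys spanned all the others for Zbp1, and its interval was wide, from -0.83 to 0.97. Without kidney 4, Zbp1 was called higher in anti-C5 against isotype kidneys.

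None of the 8 transcription factors was called in these comparisons in the TMM-scaled edgeR fit of all 12 libraries. On library totals Irf3 was called in isotype against sham and in anti-G-CSFR against isotype kidneys. In anti-C5 against isotype kidneys Irf8 was called without kidney 4, Irf2 without kidney 11, and Irf1 and Irf2 without kidneys 9 and 11. Irf1, which drives genes downstream of interferon gamma, had 13.0, 16.1 and 23.1 CPM in anti-G-CSFR kidneys, 13.5, 23.5 and 14.4 CPM in anti-C5 kidneys, 24.8, 17.8 and 17.0 CPM in isotype kidneys, and 12.3, 15.8 and 11.6 CPM in sham kidneys. Isotype kidneys were above sham kidneys, and kidneys 9 and 11 lay within the isotype range. The log2 change of 0.59 (95% interval 0.03 to 1.14) missed the threshold over all genes (edgeR, BH-adjusted p = 0.0638). It was called in 5 of 22 alternatives, with adjusted p from 0.0138 to 0.223 over all of them. Among the 5 was a fit of only the 6 libraries compared (0.58, edgeR, BH-adjusted p = 0.0278).

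Irf2, which competes with Irf1 for the same sites, had 15.4, 19.6 and 21.2 CPM in anti-G-CSFR kidneys, 17.6, 24.0 and 17.9 CPM in anti-C5 kidneys, 23.3, 23.5 and 23.3 CPM in isotype kidneys, and 22.5, 21.2 and 22.7 CPM in sham kidneys. Anti-G-CSFR kidneys were below isotype kidneys, by a log2 change of -0.32 that was not called (edgeR, BH-adjusted p = 0.0604). This change passed in 5 of 22 alternatives, among them limma-voom (BH-adjusted p = 0.0465) and the fit without kidney 9 (edgeR, BH-adjusted p = 0.0399). Irf3, which the sensors activate, had 47.0, 39.9 and 40.7 CPM in anti-G-CSFR kidneys, 45.5, 45.4 and 52.6 CPM in anti-C5 kidneys, 54.9, 44.7 and 45.4 CPM in isotype kidneys, and 45.3, 42.8 and 43.5 CPM in sham kidneys. Irf7, which amplifies type I interferon production, had 9.51, 16.9 and 14.0 CPM in anti-G-CSFR kidneys, 15.6, 11.1 and 11.9 CPM in anti-C5 kidneys, 10.4, 10.3 and 7.84 CPM in isotype kidneys, and 7.64, 17.2 and 8.43 CPM in sham kidneys. Isotype and sham kidneys overlapped for both, and the interval of Irf7 ran from -0.88 to 0.43. Irf8, Irf9, Stat2 and Nlrc5, the transactivator of MHC class I genes, had levels of 2.12 to 25.3 CPM over the 12 kidneys.

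Of the 6 MHC class I genes, which load peptides and carry them to the cell surface, 1 was called. H2-D1, a classical heavy chain, had 191.6, 201.5 and 233.1 CPM in anti-G-CSFR kidneys, 215.5, 207.1 and 201.1 CPM in anti-C5 kidneys, 242.4, 272.6 and 262.2 CPM in isotype kidneys, and 199.7, 215.1 and 200.5 CPM in sham kidneys. Isotype kidneys were above all the others. The fitted log2 changes came to small, 0.34 ± 0.10 in isotype against sham kidneys, -0.31 ± 0.10 in anti-G-CSFR against isotype kidneys and -0.32 ± 0.10 in anti-C5 against isotype kidneys (edgeR, BH-adjusted p = 0.0109, 0.0162 and 0.0159). The antibody calls were lost without kidney 5 (edgeR, BH-adjusted p = 0.0635 for anti-G-CSFR and 0.0629 for anti-C5), and that for anti-G-CSFR also without kidney 7 or 8 (0.074 and 0.0604). That for anti-C5 was also lost in a fit of only the 6 libraries compared (edgeR, BH-adjusted p = 0.059).

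H2-K1, the other classical heavy chain measured, had 157.6, 166.3 and 213.9 CPM in anti-G-CSFR kidneys, 177.2, 171.4 and 165 CPM in anti-C5 kidneys, 194.2, 204.8 and 204 CPM in isotype kidneys, and 174.5, 179.9 and 174.5 CPM in sham kidneys. Isotype kidneys were above the anti-C5 and sham kidneys, and kidney 9 was above them all. On the log2 scale the changes were 0.19 in isotype against sham kidneys, -0.17 in anti-G-CSFR against isotype kidneys and -0.23 in anti-C5 against isotype kidneys, none called (edgeR, BH-adjusted p = 0.157, 0.212 and 0.0913). Without kidney 9 the antibody changes passed, at -0.29 for anti-G-CSFR and -0.22 for anti-C5 (edgeR, BH-adjusted p = 0.0193 and 0.0403).

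B2m, the light chain that every class I molecule needs, had 222.5, 269.1 and 266.3 CPM in anti-G-CSFR kidneys, 231.6, 233.5 and 252 CPM in anti-C5 kidneys, 211.5, 215.9 and 210.7 CPM in isotype kidneys, and 217, 250.8 and 221.6 CPM in sham kidneys. The isotype kidneys were the lowest on this gene and did not overlap any other group. In log2 units the changes were -0.11 in isotype against sham kidneys, 0.25 in anti-G-CSFR against isotype kidneys and 0.17 in anti-C5 against isotype kidneys, none called (edgeR, BH-adjusted p = 0.361, 0.0519 and 0.175). On library totals alone the direction of B2m turned in isotype against sham kidneys (0.09) and in anti-C5 against isotype kidneys (-0.01). In these comparisons its direction rests on the scaling of the libraries. In anti-G-CSFR against isotype kidneys B2m kept its direction in all 22 alternatives, at 0.04 to 0.33, and was called in 5 of them.

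Tapbp, or tapasin, which holds class I molecules at the peptide transporter, had 65.4, 73.8 and 90.3 CPM in anti-G-CSFR kidneys, 81.0, 85.1 and 70.7 CPM in anti-C5 kidneys, 83.4, 90.3 and 94.5 CPM in isotype kidneys, and 73.9, 84.2 and 76.2 CPM in sham kidneys. The groups overlapped, and the interval in isotype against sham kidneys was -0.07 to 0.46. The transporter genes Tap1 and Tap2 had levels of 6.87 to 13.2 CPM and 16.2 to 30.6 CPM over the 12 kidneys. Tap1, Tap2 and Tapbp had no call in the TMM-scaled edgeR fit of all 12 libraries. In anti-G-CSFR against isotype kidneys Tap2 and Tapbp were called lower without kidney 9 and without kidneys 9 and 11. Tapbp was also called on library totals in that comparison and in isotype against sham kidneys. Per kilobase of exon, the scale on which genes can be compared, B2m stood first of the 45 genes at 247.3 ± 3.26 CPM per kb in isotype kidneys and 267.2 ± 21.3 CPM per kb in sham kidneys (SD, n = 3). H2-D1 followed at 100.5 ± 5.95 CPM per kb in isotype kidneys and 79.5 ± 3.36 CPM per kb in sham kidneys, and H2-K1 at 68.4 ± 2.01 and 60.0 ± 1.06 CPM per kb in isotype and sham kidneys. On the same scale Ifngr2 stood seventh in isotype kidneys and fifteenth in sham kidneys, and Isg20 was number 24 in isotype kidneys and 41 in sham kidneys.

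The antibody-treated injured kidneys were also set against sham kidneys and against each other, which asks how far they stood from uninjured tissue and whether the antibodies differed. No gene of the whole table was called by edgeR in the fit of all 12 libraries in these 3 comparisons (0% of all genes), and so 0 of the 45. Fitted on only the 6 libraries compared, edgeR called 43 genes in anti-G-CSFR against sham kidneys (0.328%), none of the 45, and 0 genes in the other two comparisons. At an unadjusted p under 0.05 the numbers were 0 of the 45 and 778 of all genes in anti-G-CSFR against sham kidneys, 1 (Isg20) and 1487 in anti-C5 against sham kidneys, and 1 (Ifi35) and 207 in anti-G-CSFR against anti-C5 kidneys. DESeq2 called 1, 112 and 2 genes of the whole table in these comparisons and none of the 45, and limma-voom called 0. The 95% interval of the log2 change lay inside a 2-fold change in either direction for 38 of 45 genes in anti-G-CSFR against sham kidneys, 39 in anti-C5 against sham kidneys and 42 in anti-G-CSFR against anti-C5 kidneys. Anti-G-CSFR and sham kidneys did not overlap for 1 gene higher and 1 lower, while 18.4% of all genes did not (9.47% higher and 8.9% lower). Anti-C5 and sham kidneys did not overlap for 3 higher and 0 lower, against 18% of all genes (9.36% and 8.59%). Anti-G-CSFR and anti-C5 kidneys did not overlap for 0 higher and 2 lower, against 4.28% (1.9% and 2.38%). Isg20 had the widest upper bounds against sham kidneys, 1.36 for anti-G-CSFR and 1.82 for anti-C5.

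Other genes of the pathway, taken from lists of related genes, showed changes in both directions. Of 20 interferon genes listed 0 were measured here, so the ligands themselves were not assessed. Of the signalling genes between receptor and nucleus, 7 of 12 measured were called in isotype against sham kidneys, 4 higher and 3 lower. Ptpn2, a phosphatase that ends STAT signalling, rose by 0.65 ± 0.10 in log2 units, Irf2bp2 by 0.79 ± 0.15 and the kinase Jak1 by 0.70 ± 0.16 (edgeR, BH-adjusted p = 0.000216, 0.000778 and 0.00277). The phosphatase Ptpn6 fell by 0.63 ± 0.11 (edgeR, BH-adjusted p = 0.000416). In anti-G-CSFR against isotype kidneys 2 of these 12 genes were higher and 4 lower, and in anti-C5 against isotype kidneys 3 were higher and 5 lower. The 5 were 3 by DESeq2 and without kidney 5, 6 or 12, and the 4 were 7 on library totals. Over all genes, 32.1% were called higher and 30.7% lower in isotype against sham kidneys. The shares were 31.5% and 32% in anti-G-CSFR against isotype kidneys, and 30.5% and 29.8% in anti-C5 against isotype kidneys.

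Of 15 measured genes of nucleic acid sensing outside the 4 sensors, 6 rose and 0 fell in isotype against sham kidneys, 0 rose and 6 fell in anti-G-CSFR against isotype kidneys, and 0 rose and 7 fell in anti-C5 against isotype kidneys. The 7 were 3 without kidney 5 or 12, 4 without kidney 10 and 4 in a fit of the 6 libraries compared. Sting1, the adaptor of the DNA sensor cGAS, averaged 5.44 ± 3.54 CPM in anti-G-CSFR kidneys, 7.31 ± 6.39 CPM in anti-C5 kidneys, 21.9 ± 7.44 CPM in isotype kidneys and 4.01 ± 1.02 CPM in sham kidneys (SD, n = 3 each), a log2 change of 2.45 ± 0.56 in isotype against sham kidneys (edgeR, BH-adjusted p = 0.00242). Kidneys 9 and 11 had 9.53 and 14.7 CPM of Sting1, and the other antibody-treated kidneys lay between 3.36 and 3.71 CPM. The Toll-like receptor adaptor Myd88 rose by 1.14 ± 0.17 and the signalling adaptor Traf3 by 1.09 ± 0.13 in isotype against sham kidneys (edgeR, BH-adjusted p = 0.000138 and 3.79e-05). These lists were drawn up with earlier results of these data known. Their counts in isotype against sham kidneys stand beside 32.1% of all genes called higher and 30.7% lower. Those against isotype kidneys stand beside 31.5% higher and 32% lower for anti-G-CSFR, and 30.5% higher and 29.8% lower for anti-C5.

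Of 54 other interferon-induced genes measured, 11 rose and 15 fell in isotype against sham kidneys. In anti-G-CSFR against isotype kidneys 18 rose and 12 fell, and in anti-C5 against isotype kidneys 17 rose and 9 fell. The shares of all genes called higher and lower were, in the same order, 32.1% and 30.7%, 31.5% and 32%, and 30.5% and 29.8%. The 15 that fell were 8 on library totals alone, 6 without kidney 2, 9 without kidney 5 and 8 without kidney 6. The 18 that rose under anti-G-CSFR were 7 on library totals and 9 without kidney 6, and the 17 under anti-C5 were 9 on library totals and 10 without kidney 6 or 10. Among those that rose, Oasl1, which in mice holds down translation of Irf7, averaged 2.15 ± 1.05 CPM in anti-G-CSFR kidneys, 3.17 ± 2.04 CPM in anti-C5 kidneys, 11.7 ± 2.35 CPM in isotype kidneys and 2.02 ± 0.51 CPM in sham kidneys (SD, n = 3 each). Kidneys 9 and 11 had 3.33 and 5.42 CPM of Oasl1, and the other antibody-treated kidneys lay between 1.32 and 2.61 CPM. Plscr1, a phospholipid scramblase, rose by 1.59 ± 0.19 and Ifitm2, which blocks viral entry, by 0.67 ± 0.11 in log2 units in isotype against sham kidneys (edgeR, BH-adjusted p = 3.79e-05 and 0.000367). Cmpk2, the nucleotide kinase that feeds viperin, averaged 19.6 ± 2.18 CPM in anti-G-CSFR kidneys, 18.1 ± 4.01 CPM in anti-C5 kidneys, 6.86 ± 2.19 CPM in isotype kidneys and 18.9 ± 2.04 CPM in sham kidneys (SD, n = 3 each). Its log2 change in isotype against sham kidneys was -1.46 ± 0.22, beside -1.86 ± 0.38 for the guanylate-binding protein Gbp6 and -0.65 ± 0.08 for Parp10 (edgeR, BH-adjusted p = 0.000152, 0.00133 and 4.83e-05).

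Of 25 other genes of class I presentation, 4 rose and 11 fell in isotype against sham kidneys, where 32.1% of all genes were called higher and 30.7% lower. In each antibody group against isotype kidneys 10 rose and 1 fell. The shares of all genes there were 31.5% higher and 32% lower for anti-G-CSFR, and 30.5% higher and 29.8% lower for anti-C5. The 4 that rose were 8 on library totals and 2 without kidney 1 or 3, and the 1 that fell ranged from 0 to 5 over the alternatives in each antibody group. The non-classical heavy chain H2-T24 averaged 7.37 ± 0.16 CPM in anti-G-CSFR kidneys, 7.73 ± 1.24 CPM in anti-C5 kidneys, 2.70 ± 0.59 CPM in isotype kidneys and 7.93 ± 1.95 CPM in sham kidneys (SD, n = 3 each). It fell by 1.55 ± 0.22 on the log2 scale in isotype kidneys, the chaperone calreticulin (Calr) by 0.98 ± 0.17 and H2-T23 by 0.71 ± 0.14 (edgeR, BH-adjusted p = 0.000106, 0.000501 and 0.00094). The lipid-presenting Cd1d1 rose by 1.76 ± 0.41, H2-Q4 by 0.55 ± 0.17 and Tapbpl, a tapasin relative, by 0.48 ± 0.14 (edgeR, BH-adjusted p = 0.00269, 0.0148 and 0.0124). The call of H2-Q4 was lost without kidney 1, 3 or 6 (adjusted p = 0.0555, 0.0523 and 0.0662). The H2-Q and H2-T genes may share sequence with related genes, which was not measured here. How reads shared between genes were counted is not given in the sources used here.

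**Figure D4:**
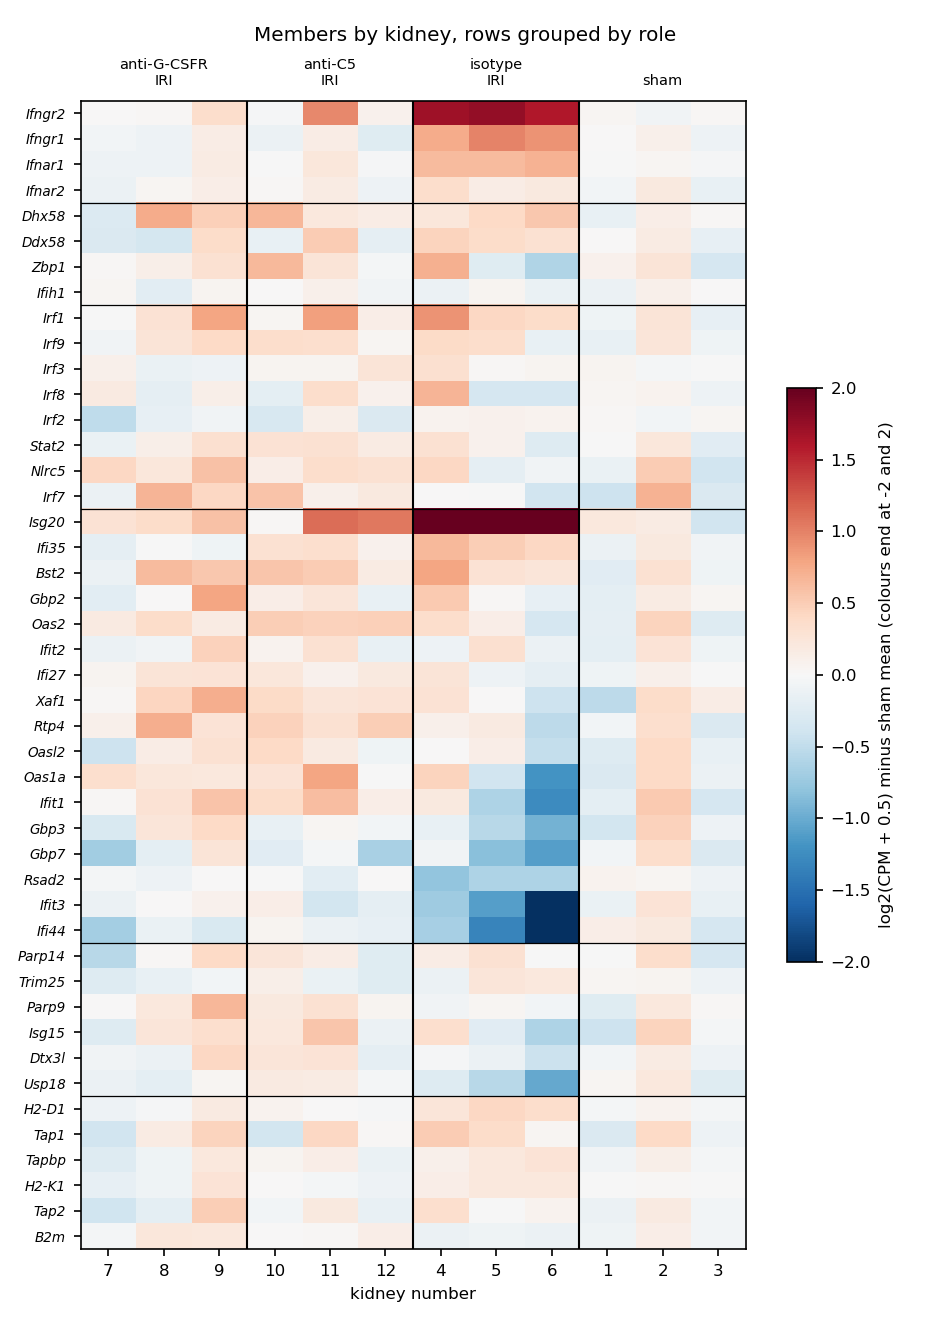
Log2(CPM + 0.5) minus the sham mean (colour, ending at -2 and 2) for the 45 genes (rows, by role) in the 12 kidneys (columns). Ifngr2, Ifngr1 and Ifnar1 are high across all 3 isotype kidneys, whereas many effector rows differ between isotype kidneys 4 and 6, and kidney 2 stands above the other sham kidneys in most rows.

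Within groups the 45 genes tended to be high or low together in 1 kidney. Sham kidney 2 was the highest of its group for 40 of 45 genes, against 33.8% of all genes. Among isotype kidneys, kidney 4 was the highest for 27 genes (44.9% of all genes) and kidney 6 the lowest for 29 (30.6% of all genes), including 19 of the 23 effectors and regulators. In the anti-G-CSFR group kidney 9 was the highest for 34 genes (39.5% of all genes) and kidney 7 the lowest for 34 (32.3%). In the anti-C5 group kidney 11 was the highest for 25 genes (38.2%) and kidney 12 the lowest for 28 (34.9%). The mean log2 level of the effectors relative to sham ran from -0.55 in kidney 6 to 0.21 in kidney 4 among isotype kidneys, a wider span than the 0.86 to 0.89 of the receptor chains in the same kidneys. Leaving out kidney 4 raised the genes called lower in isotype against sham kidneys to 7, and those called higher against isotype kidneys to 9 for anti-G-CSFR and 10 for anti-C5.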

How the data were processed

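RNA of 12 perfused kidneys was sequenced in strand-specific libraries as single-end reads of 100 bases, per the labels' protocols. The submitters' processing notes name the build GRCm38.p4, Bowtie2 2.2.5, TopHat2 2.1.0 and featureCounts. Of the counting, neither the strand setting nor the annotation nor the handling of shared reads is given in the sources used here. The values the authors deposited are raw read counts for 13124 genes, each with at least 2.01 CPM in its third-highest library, a filter read from the values. Symbols came from the RefSeq table of GRCm38.p6 (13074 genes matched) and coordinates from GENCODE vM21.

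Counts were scaled by TMM and tested in edgeR 4.0.16 (R 4.3.3) by the robust quasi-likelihood method in one model of the 12 libraries (8 residual degrees of freedom, common biological coefficient of variation 16.4%), with BH adjustment over all genes and a call at an adjusted p under 0.05. Alternatives used DESeq2 1.42.0 and limma 3.58.1. The code was tested on simulated data. Nothing in the labels says more of how the 3 mice of a group were kept, and p-values measure the spread between these kidneys. No pair of libraries in a group agreed within sampling noise (chi-square per degree of freedom 5.48 to 65.3). The genes and lists examined were chosen with earlier results of these data known. Genes given by kidney are, in each role, the up to 4 with the smallest p over the comparisons with the isotype group, and of each further list up to 3 per direction with the smallest p in isotype against sham kidneys; exceptions are named as such, and some genes that the rule picks are not reported here.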

Additional observations from a re-analysis of the deposited data

How the results depend on the processing

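Counts of called genes, the log2 changes of the 45 genes and those of the called genes named from the further lists were recomputed under 22 alternatives (21 for genes that a filter at 5 CPM removed): other scaling factors, filters on low counts, DESeq2, limma-voom, a fit of the 6 libraries compared, a fit without the robust option, each kidney left out, and kidneys 9 and 11 left out together, the last chosen after the data were seen. edgeR's filterByExpr removed no gene. No paired analysis was possible because kidney numbers run from 1 to 12 and no number occurs in 2 groups. Levels, marker sums, promoter shares and the order of kidneys were not recomputed. The planned comparison of protein sequences was not run, and shared 100-base windows of transcripts were counted in its place.

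The changes of Ifngr2, Ifngr1, Ifnar1, Isg20, Rsad2 and Ifit3 in the 3 comparisons with the isotype group kept their direction and their call under every alternative, and so did Ifi35, Ifi44 and H2-D1 in isotype against sham kidneys. On library totals alone the genes called in isotype against sham kidneys were 12 higher, those in anti-G-CSFR against isotype kidneys 2 higher and 13 lower, and those lower in anti-C5 against isotype kidneys 9. That setting moved the median of all genes to 0.23 in isotype against sham kidneys, to -0.23 in anti-G-CSFR and to -0.19 in anti-C5 against isotype kidneys. Without kidneys 9 and 11, 11 genes were lower in anti-G-CSFR and 8 in anti-C5 against isotype kidneys. With 1 kidney left out, the counts ran from 6 to 7 higher and 3 to 7 lower in isotype against sham kidneys, from 2 to 9 higher and 5 to 11 lower in anti-G-CSFR against isotype kidneys, and from 3 to 10 higher and 4 to 7 lower in anti-C5 against isotype kidneys. The extremes came without kidney 4 (7 lower, 9 higher and 10 higher), kidney 8 (2 higher) and kidney 9 (11 lower). No called change among the 45 genes turned direction. Of those not called, 19 of 35 turned under at least 1 alternative in isotype against sham kidneys, 14 of 35 in anti-G-CSFR and 11 of 36 in anti-C5 against isotype kidneys, among them B2m on library totals (0.0883 in isotype against sham kidneys, -0.0132 in anti-C5 against isotype kidneys), and Isg15 in isotype against sham kidneys, at 0.0216 on library totals, 0.12 without kidney 2 and 0.04 without kidney 6, where leaving out 1 kidney gave values from -0.52 to 0.12. The cause of these shifts was not tested. With 3 kidneys per group, intervals of genes with raw counts under 50 were wide.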
